A study of Homo sapiens with 36 samples.

Results

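The 9 genes described here encode the kinases that phosphorylate the translation initiation factor eIF2, the phosphorylated subunit itself, the regulatory subunits of the phosphatase that reverses the mark, and 2 partners of this circuit. They were chosen by name (EIF2AK1, EIF2AK2, EIF2AK3, EIF2AK4, EIF2S1, EIF2B5, PPP1R15A, PPP1R15B and DNAJC3) from the 58721 genes of the deposited count table, and all 9 passed the filter on low counts. RNA was sequenced from H1, an established human embryonic stem cell line, labelled wild type or PERK KO, PERK being the product of EIF2AK3. Cells of each genotype were taken at days 0, 1, 2, 3, 5 and 10 of a cardiomyocyte protocol, with 3 libraries in each of the 12 groups. Day 0 cells were in E8 medium. All later groups were in a cardiac medium that held the WNT pathway activator CHIR99021 over days 0 to 1 and IWP2, which blocks WNT secretion, over days 2 to 5, with heparin over days 1 to 7 and insulin from day 7. How PERK was targeted and how many clones were used is not given in the labels. Nothing in the labels says that the replicates were separate cultures, so p-values measure only the spread between these libraries. The libraries are bulk RNA, in which fewer cells of a type and less RNA per cell cannot be told apart.

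eIF2 carries the initiator tRNA to the ribosome, and phosphorylation of its alpha subunit (EIF2S1) turns it into an inhibitor of its own exchange factor, eIF2B, so that general translation slows while a few mRNAs, among them that of the transcription factor ATF4, are translated more. The kinases differ in what activates them: PERK (EIF2AK3) senses unfolded protein in the endoplasmic reticulum (ER), GCN2 (EIF2AK4) uncharged tRNA, PKR (EIF2AK2) double-stranded RNA, and HRI (EIF2AK1) heme shortage and, through DELE1, mitochondrial stress. Protein phosphatase 1 removes the mark when it is directed to eIF2 by GADD34 (PPP1R15A), which is induced by stress, or by CReP (PPP1R15B), which is made constitutively.

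Library totals ran from 14.0 to 25.9 M reads, with a median of 18.2 M, and edgeR's quasi-likelihood test was applied to 19772 genes. A gene is called different where its Benjamini-Hochberg (BH) adjusted p, taken over all genes tested in a comparison, is under 0.05. Levels are CPM, counts scaled to a common library total after TMM normalization, and log2 fold changes carry an approximate standard error (SE). In PERK KO at day 0, replicate 2 was unlike the others, its counted reads coming from transcripts of 2028 nt on average against 2838 and 2783 nt. Wild-type day 2 replicate 3 also stood apart (a chi-square over its degrees of freedom of 74.5 and 69.7 to the other replicates, which gave 4.05 to each other), and the wild-type day 3 libraries differed among themselves (24.2 to 87.2). So did the wild-type libraries of day 10 (24.5 to 53.7) and, less, of day 5 (10.6 to 19.3) and day 0 (3.64 to 23.5). The PERK KO libraries gave 3.07 to 7.95 at day 10 and 2.38 to 3.9 at day 5. The labelled cell states were checked with marker genes. The 7 pluripotency markers summed to 6818 to 7310 CPM in wild type at day 0 and 602 to 747 at day 10, and in PERK KO to 7400 to 8645 at day 0, 7643 to 8360 at day 3 and 1976 to 2023 at day 10. The 6 cardiomyocyte markers reached 11612 to 14129 CPM in wild type at day 10 but 140 to 489 in PERK KO, where 4 neuroectoderm markers summed to 507 to 654 CPM against 0.134 to 0.337 in wild type, with SOX1 at 0. Already at day 1 the 4 mesoderm markers summed to 2615 to 2744 CPM in wild type and 642 to 791 in PERK KO. Wild type at day 10 also held more of the endoderm markers (1319 to 2044 against 310 to 524 CPM), fibroblast markers (2106 to 3506 against 124 to 164) and endothelial markers (457 to 588 against 16.1 to 35.8). At that day 2 of the 4 fibroblast markers averaged 5 CPM or more in each genotype. At day 0 the pluripotency sums already differed as given. The fibroblast sums were 242 to 254 CPM in wild type and 72.6 to 139 in PERK KO. Only 1 of the 4 fibroblast markers averaged 5 CPM or more in each genotype there. In wild type COL3A1, LUM and DCN were at 0, so its sum was COL1A1 alone. At day 2 the cardiomyocyte and endothelial sums of the genotypes overlapped. The part of these cell states in the differences below was not tested.

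EIF2AK3 is the gene the knockout label names (ENSG00000172071.11; GRCh38, minus strand of chromosome 2, 88556741 to 88627576), and every library of both genotypes had reads of it. In wild type its libraries held 18.1, 24.1 and 23.5 CPM at day 0, 11.1, 10.1 and 10.9 at day 1, and 18.9, 18.1 and 10.9 at day 2. In PERK KO they held 20.1, 11.9 and 18.7 CPM at day 0, 14.9, 13.8 and 15.1 at day 1, and 22.5, 18.6 and 20.9 at day 2. Over these days the genotypes were separate at day 1 only, with PERK KO above. At days 3, 5 and 10 wild type held 27.7, 21.6 and 16.7, then 17.4, 22.3 and 20.1, then 28.1, 21.6 and 16.8 CPM. PERK KO held 18.2, 16.9 and 16.8, then 16.8, 15.9 and 17.0, then 22.3, 20.9 and 22.9 CPM, without overlap at day 5 only, there lower. No difference between the genotypes was called, the log2 fold changes being -0.37, 0.45, 0.38, -0.35, -0.27 and -0.01 in day order, with an SE of about 0.20 and edgeR adjusted p of 0.127 to 0.981. Without wild-type day 3 replicate 3, PERK KO was called lower at day 3 (-0.51, adjusted p = 0.0447), and without both libraries that stood apart it was called higher at day 1 (0.46, adjusted p = 0.0385). Counts per gene cannot show an edit of a few bases within a transcript that is still made, and 781 exonic bases (14.4%) are shared with an antisense gene, AC104134.1, that averaged 6.58 counts against 344 for EIF2AK3. With an offset for the GC content of genes (EIF2AK3 exons are 42.2% GC), PERK KO was called lower for EIF2AK3 at days 0, 3, 5 and 10 (-0.45, -0.39, -0.70 and -0.71), and at day 1 it was called higher (0.49).

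In time, EIF2AK3 fell in wild type at day 1 (log2 fold change against day 0 of -1.04 ± 0.20, edgeR adjusted p = 1e-04) and was not called later (-0.46 at day 2, adjusted p = 0.0548). That day 2 value was called without wild-type day 0 replicate 1 (adjusted p = 0.0307) or wild-type day 2 replicate 1 or 2 (0.0299 and 0.0422). With the GC offset wild type was called lower at day 2 (-0.29, edgeR adjusted p = 0.0135) and higher at day 10 (0.40, adjusted p = 0.000725). In PERK KO no day was called, day 1 being -0.22 ± 0.20. With the GC offset the PERK KO fall at day 1 was called too (-0.40, adjusted p = 0.00184), and day 10 was called higher without PERK KO day 0 replicate 1 (0.52, adjusted p = 0.0451) and with a stricter filter on low counts (0.50, adjusted p = 0.0309). The interaction of genotype and day was 0.82 ± 0.28 at day 1 (edgeR adjusted p = 0.0344) and 0.74 ± 0.28 at day 2 (adjusted p = 0.0386), where leaving out wild-type day 2 replicate 3 and PERK KO day 0 replicate 2 brought the genotype difference from 0.38 to 0.17. Ordered by mean level, the 12 groups ran from 22.1 CPM in wild type at day 10 to 10.7 in wild type at day 1. Each group overlapped the next in that order in single libraries, except that PERK KO at day 1 (14.6 CPM), next to last, lay wholly above wild type at day 1.

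**Figure D1:**
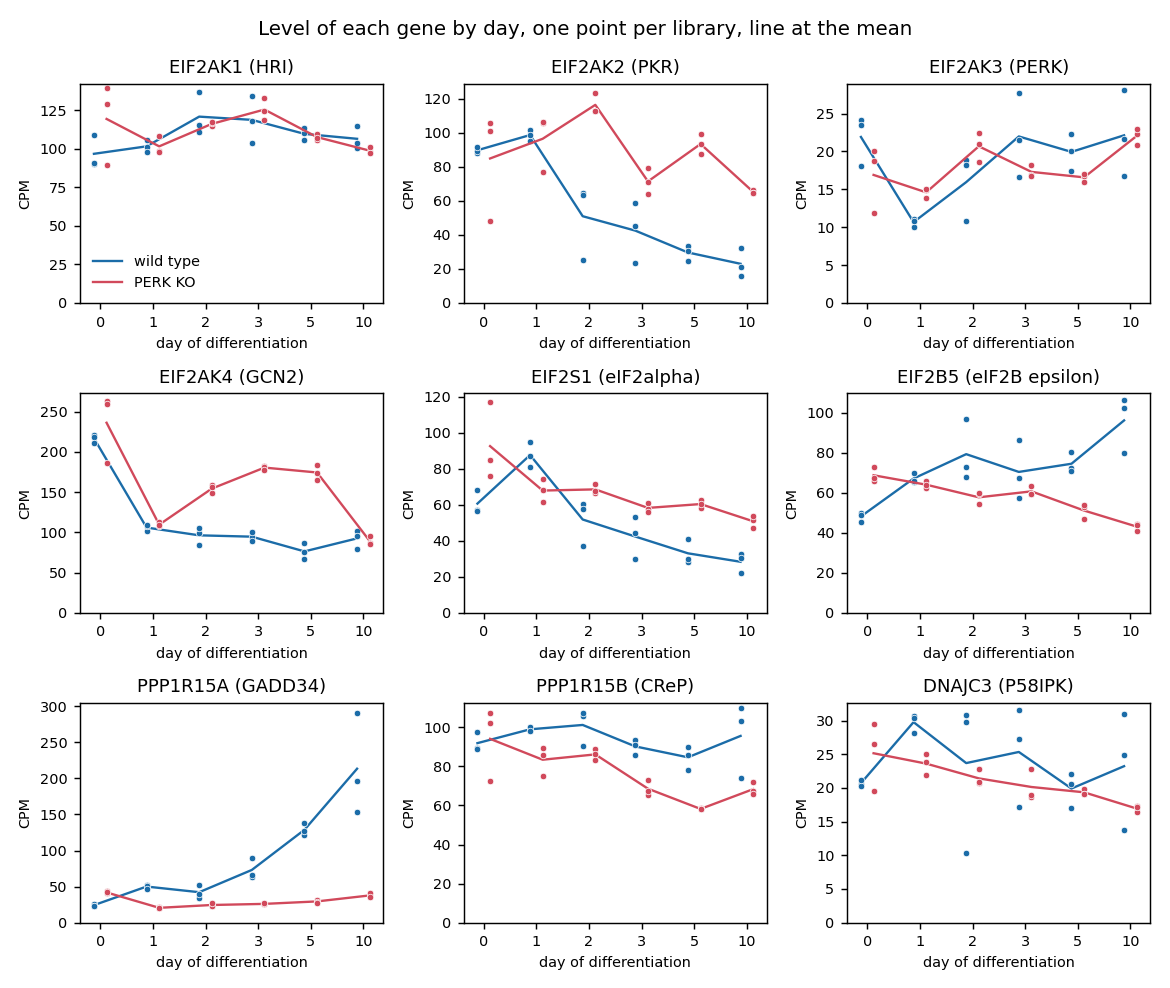
CPM of the 9 genes (y axis, from 0) against day of differentiation (x axis, sampled days evenly spaced), with 1 point per library, a line through the mean of 3, wild type in blue and PERK KO in red. PPP1R15A climbs in wild type to 153 to 291 CPM at day 10 and stays at 20.0 to 43.4 in PERK KO, EIF2AK2 is higher in PERK KO from day 2 on, and EIF2AK4 is higher in PERK KO at days 2, 3 and 5.

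EIF2AK2 (PKR, ENSG00000055332.17, chromosome 2, 37099210 to 37157065, minus strand) fell during wild-type differentiation and was higher in PERK KO from day 2 on. The wild-type libraries held 88.2, 89.6 and 91.7 CPM at day 0, 95.4, 102 and 98.9 at day 1, and 64.6, 63.5 and 24.99 at day 2. They then held 58.9, 45.5 and 23.2 CPM at day 3, 24.9, 33.3 and 30.8 at day 5, and 32.2, 21.0 and 15.9 at day 10. The lowest library at day 2 was replicate 3, which stands apart in other genes too. In PERK KO the libraries held 106, 48.2 and 101 CPM at day 0, 106, 77.1 and 107 at day 1, and 113, 113 and 124 at day 2. At days 3, 5 and 10 they held 79.5, 71.1 and 63.8, then 99.2, 87.9 and 93.5, then 66.6, 64.8 and 64.5 CPM. Every PERK KO library was above every wild-type library from day 2 on, and at days 0 and 1 the genotypes overlapped.

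Against wild type, EIF2AK2 was higher in PERK KO by 1.19 ± 0.29 on the log2 scale at day 2 (edgeR adjusted p = 0.00133) and 0.75 ± 0.29 at day 3 (adjusted p = 0.0349). The difference grew to 1.65 ± 0.30 at day 5 (adjusted p = 1.84e-05) and was 1.5 ± 0.30, or 2.83-fold, at day 10 (adjusted p = 5.49e-05). In wild type the fall against day 0 was called from day 2 (-0.82 ± 0.29) to day 10 (-1.96 ± 0.30, edgeR adjusted p = 1.07e-06), a 3.89-fold decrease. In PERK KO no day was called against day 0, the day 10 value being -0.38 ± 0.29, but day 10 was called lower with the GC offset (-0.84, adjusted p = 7.75e-07) and without both libraries that stood apart (-0.67, adjusted p = 0.0147). EIF2AK2 is a GC-poor gene (39.6% GC), and with the GC offset the genotype differences kept their calls at 0.57, 0.76, 0.96 and 0.47 for days 2, 3, 5 and 10. The call at day 3 ended without wild-type day 3 replicate 2 or 3 or PERK KO day 3 replicate 1 or 2 (adjusted p = 0.057, 0.22, 0.103 and 0.0656), and with a transcript length offset (0.64, adjusted p = 0.11). The wild-type fall at day 2 was not called without wild-type day 2 replicate 3 (-0.47, adjusted p = 0.186) or with the length offset (-0.24, adjusted p = 0.555).

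EIF2AK4 (GCN2, ENSG00000128829.11, chromosome 15, 39934146 to 40035591, plus strand) dropped within the first day in both genotypes, then climbed back in PERK KO before dropping again by day 10. In wild type the libraries held 221, 218 and 211 CPM at day 0, 102, 107 and 109 at day 1, and 99.0, 105 and 84.8 at day 2. Later they held 94.2, 99.98 and 89.5 CPM at day 3, 66.99, 86.3 and 75.6 at day 5, and 102, 95.7 and 79.5 at day 10. All wild-type libraries after day 0 were at or below 109 CPM. In PERK KO they held 263, 186 and 259 CPM at day 0, 108, 112 and 108 at day 1, and 158, 148 and 156 at day 2. At day 3 they held 183, 181 and 178 CPM, at day 5 183, 165 and 174, and at day 10 87.0, 95.5 and 85.0. The genotypes did not overlap at days 2, 3 and 5 and overlapped at days 0, 1 and 10.

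The difference between PERK KO and wild type in EIF2AK4 was 0.68 ± 0.12 at day 2 (edgeR adjusted p = 2.19e-05), 0.93 ± 0.12 at day 3 (adjusted p = 8.44e-08) and 1.19 ± 0.12 at day 5 (adjusted p = 5.27e-10), or 2.28-fold, against -0.05 ± 0.12 at day 10 (adjusted p = 0.713). Against day 0, wild type was lower at every later day, from -1.03 ± 0.12 at day 1 to -1.51 ± 0.12 at day 5. PERK KO was at -1.11, -0.61, -0.39, -0.44 and -1.40 (SE 0.12) for days 1, 2, 3, 5 and 10, all called. The interaction of genotype and day was 0.56 ± 0.17 at day 2, 0.81 ± 0.17 at day 3 and 1.07 ± 0.17 at day 5 (edgeR adjusted p = 0.00925, 0.000225 and 3.62e-06). At days 1 and 10 it was -0.07 and -0.18 and was not called. In the order of the 12 group means, PERK KO and wild type at day 0 (236 and 217 CPM) came first and overlapped, a gap followed, PERK KO at days 3 and 5 (180.4 and 174) overlapped, and PERK KO at day 2 (154) stood alone above the 7 remaining groups, which overlapped from neighbour to neighbour between 109.5 and 76.3 CPM. The PERK KO call at day 3 against day 0 ended without PERK KO day 0 replicate 1 or 3 (-0.30 and -0.31, adjusted p = 0.0591 and 0.0543), and with no filter on low counts neither day 3 nor day 5 was called (adjusted p = 0.141 and 0.0869). With the GC offset PERK KO was also called lower at day 10 (-0.44).

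EIF2AK1 (HRI, ENSG00000086232.12, chromosome 7, 6022244 to 6059230, minus strand) was the steadiest kinase. Over all 36 libraries it lay between 89.4 and 139.9 CPM, a 1.57-fold range, and no difference between the genotypes was called (log2 fold changes from -0.11 to 0.30, edgeR adjusted p from 0.0799 to 1). The largest value belonged to day 0, where PERK KO held 129, 89.4 and 139.9 CPM against 90.2, 91.1 and 109 in wild type. Without PERK KO day 0 replicate 2, the lowest of those, EIF2AK1 was called higher in PERK KO at day 0 (0.48, edgeR adjusted p = 0.00049). Within PERK KO it was then also called lower at days 1, 5 and 10 than at day 0 (-0.40, -0.31 and -0.44), none of which was called with that library. In wild type it rose against day 0 at day 2 (0.32 ± 0.12, adjusted p = 0.031) and day 3 (0.30 ± 0.12, adjusted p = 0.0425). Both calls ended when wild-type day 0 replicate 1 or 2 was left out (adjusted p from 0.0784 to 0.145), the first also without wild-type day 2 replicate 3 (0.154) and the second without wild-type day 3 replicate 2 or 3 (0.0738 and 0.212). EIF2AK1 shares 532 exonic bases (9.59%) with AIMP2 on the opposite strand, which averaged 859 counts against 2065, and whether reads were counted by strand is not stated.

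Levels of different genes can be compared only per transcript length, as TPM. In wild type at day 0 EIF2AK4 was the most abundant kinase transcript with 85.1 ± 9.19 TPM (SD, n = 3), ahead of EIF2AK1 (35.8 ± 7.55), EIF2AK2 (11.6 ± 0.513) and EIF2AK3 (8.42 ± 3.12). By day 10 the order had changed, with EIF2AK1 at 56.7 ± 6.52, EIF2AK4 at 30.4 ± 7.57, EIF2AK3 at 9.83 ± 4.50 and EIF2AK2 at 3.63 ± 1.95 TPM. As shares of the summed TPM of the 4 kinases, EIF2AK4 went from 60.3% ± 4.22 in wild type at day 0 to 35.4% ± 0.676 at day 1 and 27.2% ± 2.70 at day 3. EIF2AK1 went from 25.4% ± 5.36 to 44.2% ± 1.84 and 59.1% ± 7.24 over the same days. In PERK KO the EIF2AK4 share was 56.8% ± 12.2 at day 0, 38.4% ± 1.5 at day 1, and 43.9% ± 1.25, 44.6% ± 1.37 and 29.8% ± 1.80 at days 3, 5 and 10. Its libraries lay above all wild-type ones at days 1, 2, 3 and 5. The EIF2AK1 share was lower in every PERK KO library than in any wild-type library from day 1 to day 10, and the EIF2AK2 share higher at days 2, 5 and 10. The EIF2AK3 share stayed between 3.18% and 11.8% in all 36 libraries. With 3 libraries against 3, an exact two-sided permutation test cannot go below p = 0.1, so these shares are given as levels. TPM depends on the transcript length RSEM assigned, which for EIF2AK1 in wild type at day 0 was 2985, 4369 and 3629 nt in the 3 libraries. Its mean length in wild type was 3661, 2502 and 2609 nt at days 0, 3 and 10. The mean CPM of EIF2AK1 was 96.9, 118.9 and 106.6 on these days. For EIF2AK4 in wild type the mean length was 3402 nt at day 0 and 4079 nt at day 10, and the mean CPM 216.9 and 92.45. The part of these lengths in the order and the shares was not tested. At day 1 the EIF2AK1 CPM averaged 101.7 in both genotypes, while its assigned length was 2959, 2994 and 2929 nt in wild type and 3612, 3699 and 3712 nt in PERK KO.

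**Figure D2:**
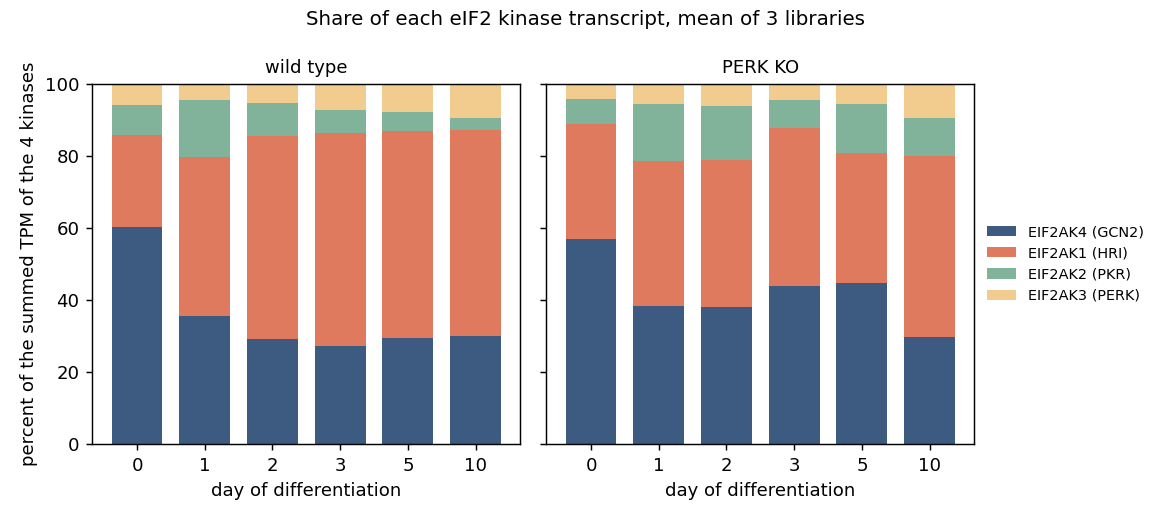
Stacked bars of the mean share (n = 3) of each eIF2 kinase in the summed TPM of the 4 kinases (y axis, percent) against day (x axis, sampled days evenly spaced), wild type left and PERK KO right. EIF2AK4 takes 60.3% in wild type at day 0 and 27.2% at day 3, whereas in PERK KO it takes 43.9% at day 3 and 44.6% at day 5.

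EIF2S1 (eIF2alpha, ENSG00000134001.12, chromosome 14, 67359997 to 67386516, plus strand), the substrate of all these kinases, was higher in PERK KO late in the course. The wild-type libraries held 68.5, 57.3 and 56.4 CPM at day 0, 94.9, 87.3 and 80.97 at day 1, and 60.8, 57.9 and 37.0 at day 2. They held 53.1, 44.2 and 29.9 CPM at day 3, 28.0, 30.2 and 41.1 at day 5, and 32.6, 30.6 and 22.0 at day 10. Wild type thus peaked at day 1 and was lowest at day 10. In PERK KO the libraries held 84.8, 117 and 76.0 CPM at day 0, 68.0, 61.5 and 74.4 at day 1, and 71.4, 66.6 and 68.0 at day 2. At days 3, 5 and 10 they held 61.0, 57.7 and 56.2, then 58.1, 62.5 and 60.8, then 51.5, 53.9 and 47.2 CPM. The genotypes did not overlap at any of the 6 days, PERK KO being the lower at day 1 and the higher at the others.

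Higher EIF2S1 in PERK KO was called at day 0 (0.61 ± 0.19, edgeR adjusted p = 0.0202), day 3 (0.46 ± 0.19, adjusted p = 0.0474), day 5 (0.87 ± 0.19, adjusted p = 0.000253) and day 10 (0.84 ± 0.19, adjusted p = 3e-04), or 1.79-fold at day 10. At days 1 and 2 the values were -0.37 and 0.40 (adjusted p = 0.204 and 0.0837), the second called without wild-type day 2 replicate 1 (0.53, adjusted p = 0.0432). In wild type EIF2S1 rose at day 1 (0.53 ± 0.19, adjusted p = 0.0223) and was lower than on day 0 later, with -0.52, -0.87 and -1.10 ± 0.19 for days 3, 5 and 10 (adjusted p = 8.91e-06 for the last). In PERK KO it was lower at days 3, 5 and 10 (-0.67, -0.61 and -0.86 ± 0.19), the first 2 not called without PERK KO day 0 replicate 2 (adjusted p = 0.0643 and 0.123), and days 1 and 2 were called without PERK KO day 0 replicate 3 (-0.57 and -0.55). The wild-type rise at day 1 lost its call without wild-type day 0 replicate 2 or 3 or day 1 replicate 1 (adjusted p = 0.0567, 0.0785 and 0.0794), and the fall at day 3 without wild-type day 0 replicate 1 or day 3 replicate 3 (0.0953 and 0.172). With the GC offset neither was called (0.21 and -0.19, adjusted p = 0.322 and 0.329), and day 10 against day 0 was -0.43 in wild type and -1.44 in PERK KO. With the length offset the wild-type falls at days 3 and 5 were not called (adjusted p = 0.911 and 0.0635). The interaction with day was called at day 1 alone (-0.98 ± 0.27, adjusted p = 0.00774). EIF2S1 is the most GC-poor of the 9 genes (39.1% GC), and with the GC offset the genotype difference was 0.14 at day 5 (adjusted p = 0.509) and turned to -0.28 at day 10 (adjusted p = 0.16). The day 0 call ended without PERK KO day 0 replicate 2 (0.41, adjusted p = 0.158) or wild-type day 0 replicate 2 or 3 (0.57 and 0.56, adjusted p = 0.0756 and 0.0846), and the day 3 call without any of 5 of the 6 libraries (lowest value 0.26 without wild-type day 3 replicate 3, adjusted p = 0.29). EIF2S1 overlaps ATP6V1D on the opposite strand over 269 exonic bases (4.76%).

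EIF2B5 (eIF2B epsilon, ENSG00000145191.13, chromosome 3, 184135038 to 184146112, plus strand) is the catalytic subunit of the exchange factor that phosphorylated eIF2 inhibits. In wild type its libraries held 45.6, 50.0 and 49.0 CPM at day 0, 65.3, 70.0 and 66.1 at day 1, and 68.0, 73.0 and 96.9 at day 2. They held 57.3, 67.5 and 86.6 CPM at day 3, 80.3, 72.2 and 71.1 at day 5, and 79.8, 102 and 106 at day 10. All later wild-type libraries were above those of day 0. In PERK KO they held 66.01, 67.4 and 72.9 CPM at day 0, 62.5, 65.8 and 63.8 at day 1, and 54.2, 59.2 and 59.8 at day 2. At days 3, 5 and 10 they held 59.3, 63.3 and 59.6, then 46.8, 52.7 and 53.9, then 44.6, 40.8 and 43.9 CPM. PERK KO was above wild type without overlap at day 0 and below it without overlap at days 2, 5 and 10.

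The log2 fold change of EIF2B5 in PERK KO against wild type was 0.51 ± 0.13 at day 0 (edgeR adjusted p = 0.00568), -0.46 ± 0.13 at day 2 (adjusted p = 0.00554), -0.54 ± 0.13 at day 5 (adjusted p = 0.000776) and -1.16 ± 0.13 at day 10 (adjusted p = 7.97e-09), or 2.23-fold lower. Wild type rose against day 0 at all later days, by 0.48 ± 0.13 at day 1 to 1.00 ± 0.13 at day 10. PERK KO was lower at day 5 (-0.43 ± 0.13) and day 10 (-0.67 ± 0.13, adjusted p = 6.51e-05). The interaction with day was called at each later day, from -0.58 ± 0.19 at day 1 to -1.67 ± 0.19 at day 10 (edgeR adjusted p = 0.0231 and 1.1e-08). The day 0 difference was not called with no filter on low counts (0.49, adjusted p = 0.0583) or with only the 6 libraries compared (0.51, adjusted p = 0.0941). The day 2 difference lost its call without wild-type day 2 replicate 3 (-0.29, adjusted p = 0.084), day 3 gained one without wild-type day 3 replicate 1 (-0.34, adjusted p = 0.0424), and the PERK KO change at day 5 without PERK KO day 5 replicate 1 (-0.36, adjusted p = 0.0526).

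PPP1R15A (GADD34, ENSG00000087074.7, chromosome 19, 48872392 to 48876057, plus strand) was the gene of the 9 called between the genotypes at all 6 days. Its upstream sequence is shown beside that of PPP1R15B because these genes encode alternative partners of the same phosphatase and moved apart. The lines give the 220 bases that begin 250 bases before each RefSeq transcription start, 5′ to 3′ on the strand of the gene (RefSeq, GRCh38.p14), with motif matches in capitals.
PPP1R15A, chr19:48872171-48872390, plus strand: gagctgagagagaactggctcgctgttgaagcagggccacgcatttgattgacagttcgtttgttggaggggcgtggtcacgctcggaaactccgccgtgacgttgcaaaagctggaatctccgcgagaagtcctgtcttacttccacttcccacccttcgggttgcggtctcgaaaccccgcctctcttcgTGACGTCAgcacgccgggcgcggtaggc
PPP1R15B, chr1:204411848-204412067, minus strand: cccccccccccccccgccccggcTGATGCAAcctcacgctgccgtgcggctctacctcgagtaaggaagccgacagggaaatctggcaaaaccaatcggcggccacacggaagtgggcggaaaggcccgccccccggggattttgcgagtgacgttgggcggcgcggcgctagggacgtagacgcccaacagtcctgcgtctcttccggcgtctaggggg
Each promoter window of 300 bases (250 before the start, 50 after) was searched on both strands for TGATGNAA, the core of C/EBP-ATF response elements, for the palindrome TGACGTCA, a cAMP response element, and for the ER stress response element. PPP1R15A held TGACGTCA at 58 bases before the start, a motif found in 1.85% of 35116 promoters of that length. PPP1R15B held TGATGCAA at 227 bases before the start, and TGATGNAA was found in 3.62% of promoters. No ER stress response element was in the windows of the 8 genes that had an entry (EIF2AK1 had none), and 0.0769% of all promoters held it. The motifs do not overlap each other here, and a match is a string of letters, not evidence of binding.

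PPP1R15A rose above its day 0 level in wild type and not in PERK KO. There it fell at day 1, and its mean then climbed from 20.55 CPM to 37.75 at day 10. The wild-type libraries held 25.6, 23.8 and 23.4 CPM at day 0, 52.9, 51.3 and 46.0 at day 1, and 34.5, 39.8 and 52.3 at day 2. They held 62.9, 66.4 and 90.0 CPM at day 3, 138, 122 and 127 at day 5, and 153, 291 and 197 at day 10. All wild-type libraries after day 0 were above those of day 0. In PERK KO the libraries held 40.6, 43.4 and 41.8 CPM at day 0, 21.2, 20.5 and 20.0 at day 1, and 23.5, 22.9 and 27.1 at day 2. At days 3, 5 and 10 they held 25.8, 25.7 and 26.6, then 31.4, 29.02 and 27.9, then 36.9, 41.2 and 35.1 CPM. PERK KO was above wild type at day 0 and below it at all other days, with no overlap of libraries at any day.

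The genotype difference in PPP1R15A was called at all 6 days. It was 0.79 ± 0.17 at day 0 (edgeR adjusted p = 0.000907), -1.28 ± 0.17 at day 1 (adjusted p = 9.5e-07), -0.79 ± 0.16 at day 2 (adjusted p = 0.000268) and -1.49 ± 0.17 at day 3 (adjusted p = 6.43e-09). At day 5 it was -2.13 ± 0.17 (adjusted p = 3.24e-12) and at day 10 -2.50 ± 0.17 (adjusted p = 9.58e-14), or 5.65-fold lower. Against its own day 0, wild type rose 2.06-fold at day 1, 1.74-fold at day 2, 3.01-fold at day 3, 5.31-fold at day 5 and 8.80-fold at day 10 (log2 3.14 ± 0.18, adjusted p = 5.65e-16). PERK KO fell by 1.03 ± 0.17 on the log2 scale at day 1 (adjusted p = 1.11e-05), was still at -0.78, -0.69 and -0.51 on days 2, 3 and 5 (called), and was not called at day 10 (-0.15 ± 0.16, adjusted p = 0.435). The day 5 value was not called with no filter on low counts (-0.45, adjusted p = 0.0587). Within the first day of differentiation the genotypes thus changed in opposite directions, and the interaction was -2.07 ± 0.23 at day 1 (edgeR adjusted p = 1.72e-07) and -3.29 ± 0.24 at day 10 (adjusted p = 1.13e-12). The group means ran from 214 ± 70.3 CPM (wild type, day 10) through 129 ± 8.17 (day 5) and 73.1 ± 14.8 (day 3) with gaps between the libraries of each, then through 4 groups that overlapped from neighbour to neighbour (wild type at days 1 and 2, PERK KO at days 0 and 10), fell through PERK KO at day 5, then PERK KO at days 3 and 2 and wild type at day 0, and ended at PERK KO at day 1 (20.55 ± 0.61). All 6 calls remained when any single library of the compared groups was left out. PPP1R15A is GC-rich (57.9%), and with the GC offset the differences were 0.94, -1.36, -0.47, -1.43, -1.78 and -1.98 in day order, all called.

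PPP1R15B (CReP, ENSG00000158615.8, chromosome 1, 204403387 to 204411791, minus strand) moved little. In wild type it stayed between 73.9 and 109.7 CPM in all 18 libraries, and no day was called against day 0, except with the GC offset at days 2 and 10 (0.25 and 0.33, adjusted p = 0.0401 and 0.00616). In PERK KO it fell against day 0 at day 3 (-0.46 ± 0.13, edgeR adjusted p = 0.00491), day 5 (-0.69 ± 0.13, adjusted p = 5.38e-05) and day 10 (-0.46 ± 0.13, adjusted p = 0.00256). At day 5 the PERK KO libraries held 58.4, 58.03 and 58.1 CPM against 78.3, 89.9 and 85.8 in wild type, and at day 10 71.9, 67.4 and 65.7 against 103, 109.7 and 73.9. PERK KO was lower without overlap from day 1 on. The difference was called at day 3 (-0.40 ± 0.13, adjusted p = 0.0117), day 5 (-0.54 ± 0.13, adjusted p = 0.000618) and day 10 (-0.48 ± 0.13, adjusted p = 0.00147). The day 3 call ended without PERK KO day 3 replicate 1 (-0.36, adjusted p = 0.0523) and with no filter on low counts (adjusted p = 0.086), the day 10 call with only the 6 libraries compared (adjusted p = 0.0519), and with the GC offset (43.4% GC) the value was -1.04 at day 10 and day 2 was called (-0.59). Without PERK KO day 0 replicate 2 it was also called lower in PERK KO at day 1 against day 0 (-0.32, adjusted p = 0.0416). As the test over all days, the interaction of genotype and day had an edgeR adjusted p of 0.0501 for PPP1R15B.

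The balance of the phosphatase subunits, as the ratio of PPP1R15A to PPP1R15B TPM in each library, went in wild type from below 1 at day 0 to above 3 at days 5 and 10. In wild type the ratio was 0.699, 0.661 and 0.594 at day 0, 1.27, 1.23 and 1.12 at day 1, and 0.782, 0.894 and 1.39 at day 2. It was 1.60, 1.74 and 2.50 at day 3, 4.20, 3.22 and 3.52 at day 5, and 3.57, 6.51 and 6.40 at day 10. In PERK KO it was 0.903, 1.43 and 0.974 at day 0, and the lowest and highest libraries of later days were 0.534 at day 1 and 1.46 at day 10. PERK KO was above wild type at day 0 and below it at each later day, without overlap at any of the 6 days.

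**Figure D3:**
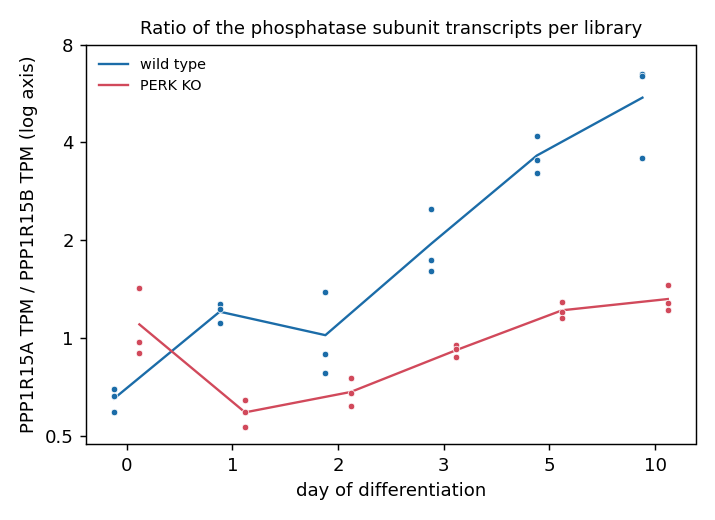
Ratio of PPP1R15A to PPP1R15B TPM per library (y axis, log scale) against day (x axis, sampled days evenly spaced), with points for libraries and lines through the mean of 3, wild type in blue and PERK KO in red. The wild-type mean goes from 0.651 at day 0 to 5.495 at day 10, and the PERK KO mean is 1.10 at day 0, 0.591 at day 1 and 1.32 at day 10.

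DNAJC3 (P58IPK, ENSG00000102580.14, chromosome 13, 95677139 to 95794989, plus strand), an ER co-chaperone also known as an inhibitor of PKR and PERK, was not called between the genotypes at any day. Its log2 fold changes ran from -0.46 to 0.28 (SE about 0.26, edgeR adjusted p from 0.124 to 0.903). Wild-type libraries held 29.8, 30.8 and 10.4 CPM at day 2 and 31.0, 24.9 and 13.8 at day 10, against 20.7, 22.7 and 20.9 and 17.2, 16.4 and 17.2 in PERK KO. The lowest wild-type library of each of these days lay below all PERK KO libraries, and the others above them. Without wild-type day 10 replicate 3 DNAJC3 was called lower in PERK KO at day 10 (-0.71, adjusted p = 0.0267). Without wild-type day 2 replicate 3 it was called higher in wild type at day 2 than at day 0 (0.57), and without PERK KO day 0 replicate 2 lower in PERK KO at day 10 than at day 0 (-0.72). With the GC offset (40.3% GC) it was called at days 2, 3, 5 and 10 (-0.68, -0.36, -0.67 and -1.39), and at day 0 in the other direction (0.30).

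**Figure D4:**
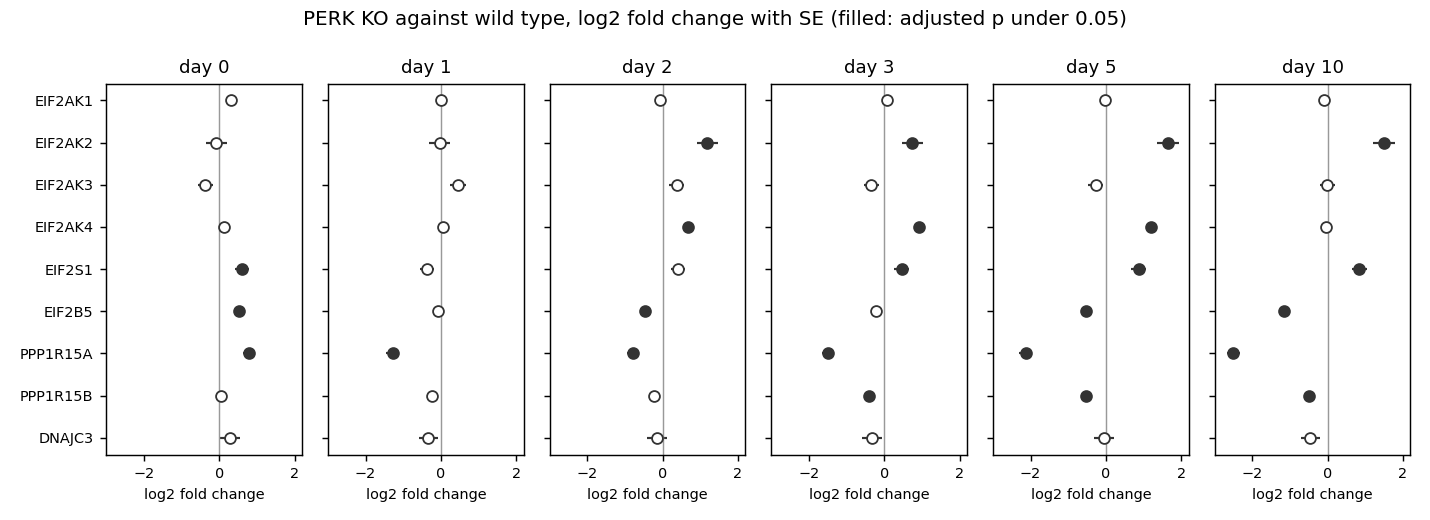
Log2 fold change of PERK KO against wild type (x axis) for the 9 genes (y axis) in 1 panel per day, with bars of 1 SE and filled points where the edgeR adjusted p is under 0.05. PPP1R15A moves from 0.79 at day 0 to -2.50 at day 10, EIF2B5 from 0.51 to -1.16, and EIF2AK2 is higher from day 2 on.

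Counted over the 9 genes, calls between the genotypes have to be read against how many of all genes were called. At day 0, 3 of 9 were called, all higher in PERK KO, against 21.1% of all genes tested, and at day 1 only PPP1R15A was, against 15.8%. At day 2, 4 were called (2 higher, 2 lower) against 42.6%, at day 3 5 (3 higher, 2 lower) against 45.1%, at day 5 6 (3 and 3) against 59.0%, and at day 10 5 (2 higher, 3 lower) against 67.3%. The median log2 fold change of the 9 was 0.28 at day 0, where that of all genes was 0.03, and -0.11 at day 10, where that of all genes was 0.00. From day 2 on these counts were near the share of all genes. In the interaction of genotype and day over all days, 6 of 9 were called against 80.9% of all genes.

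Against day 0, wild type had 5 of the 9 called at day 1 (3 higher, 2 lower) against 44.6% of all genes, 5 at day 2 against 50.5%, 6 at day 3 against 56.8%, 5 at day 5 against 61.9% and 5 at day 10 against 69.2%. In PERK KO 2 were called at day 1 against 43.1%, 2 at day 2 against 41.4%, 4 at day 3 against 40.3%, 5 at day 5 against 48.8% and 4 at day 10 against 61.8%. All the PERK KO calls were decreases, whereas wild type had 2 or 3 increases at every day, always including PPP1R15A and EIF2B5. Of all genes, 18%, 17.5%, 18.5%, 21.5% and 29.9% were called higher in PERK KO on days 1, 2, 3, 5 and 10. Lower there were 25.1%, 23.8%, 21.8%, 27.3% and 31.9%. In wild type 20.9%, 25.4%, 29.3%, 31.4% and 34.9% were called higher and 23.7%, 25.1%, 27.5%, 30.5% and 34.3% lower. Within a genotype these comparisons share the day 0 libraries. The median log2 fold change of the 9 genes in PERK KO was -0.22 at day 1 and -0.46 at day 10, beside -0.06 and 0.01 for all genes.

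Among 22 other genes of the eIF2 machinery (eIF2 and eIF2B subunits, phosphatase catalytic subunits and regulators of the kinases), 9 differed at day 0 (8 higher and 1 lower in PERK KO), 4 at day 1 (1 and 3), then 12 (6 and 6), 8 (4 and 4), 15 (10 and 5) and 13 (4 and 9) on days 2, 3, 5 and 10. Of all genes tested 21.1%, 15.8%, 42.6%, 45.1%, 59.0% and 67.3% were called in these comparisons, so that the counts at days 1, 3 and 10 were near or below the share of all genes. EIF5, the GTPase-activating partner of eIF2, was higher in PERK KO at day 0 (1.05 ± 0.17), lower at day 1 (-0.74 ± 0.17), and higher again at day 2 (0.65 ± 0.17) and day 10 (1.67 ± 0.17, edgeR adjusted p = 7.48e-10). Its libraries held 151, 105 and 112 CPM in wild type at day 0 and 326, 301 and 295 at day 1, against 261, 275 and 227 and then 200.1, 182 and 171 in PERK KO. HSPA5, the ER chaperone BiP that holds PERK inactive, was lower in PERK KO at days 1, 2 and 3 (-0.53, -0.78 and -0.79, SE 0.18). It fell in PERK KO against day 0 at day 1 (-1.19 ± 0.19, edgeR adjusted p = 6.91e-06), while the wild-type libraries held 475, 425 and 415 CPM at day 0 and 588, 520 and 513 at day 1, and the interaction was -1.49 ± 0.26 (adjusted p = 0.000105). In PERK KO at day 0 the libraries of HSPA5 held 708, 1175 and 670 CPM, the highest being replicate 2, which stands apart. EIF2B3, the gamma subunit of eIF2B, fell by 2.10 ± 0.19 on the log2 scale in PERK KO at day 10 against day 0, and PPP1CA, a catalytic subunit of protein phosphatase 1, fell by 1.98 ± 0.24. EIF2B2, eIF2B beta, was below wild type in PERK KO at days 3, 5 and 10 (-0.54, -0.80 and -1.04 ± 0.17). IMPACT, an inhibitor of GCN2 activation, was higher in PERK KO at day 5 (1.46 ± 0.26, adjusted p = 1.65e-05). EIF2S2, the beta subunit of eIF2, fell in wild type by 2.37 ± 0.25 at day 10 and in PERK KO by 2.00 ± 0.25. DELE1, which relays mitochondrial stress to HRI, rose in wild type at day 10 (0.96 ± 0.11) and was below wild type in PERK KO on that day (-0.82 ± 0.11).

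Of 12 genes commonly read as a sign of ATF4 activity (ATF4, the factor downstream of eIF2 phosphorylation, and known targets), 2 were higher and none lower in PERK KO at day 0, 1 higher and 7 lower at day 1, then 5 and 3, 6 and 2, 4 and 4, and 1 and 9 on days 2, 3, 5 and 10. Their median log2 fold changes in day order were 0.24, -0.63, 0.06, 0.57, -0.21 and -1.31, where those of all genes lay between -0.03 and 0.03. The 2 calls at day 0 were below the share of all genes (21.1%), and at day 1 8 of 12 were called against 15.8%. On each of days 2, 3 and 5, 8 of 12 were called, against 42.6%, 45.1% and 59.0%. At day 10 it was 10 of 12 against 67.3%. At day 0 ATF3, a stress-induced repressor, was higher by 1.41 ± 0.18 and CHAC1, which degrades glutathione, by 0.83 ± 0.22. At day 1 CHAC1 (-1.54 ± 0.23), ATF5 (-1.23 ± 0.18), PSAT1 of serine synthesis (-0.88 ± 0.10) and SESN2 (-0.76 ± 0.15) were lower. At day 2 CHAC1 was higher again (1.49 ± 0.24), as were STC2 (2.63 ± 0.20) and VLDLR (2.10 ± 0.15). At day 10 DDIT3, which encodes CHOP, was lower by -3.70 ± 0.28 (edgeR adjusted p = 8.51e-13) and ATF3 by -2.96 ± 0.19, while PSAT1 was higher by 1.69 ± 0.10. DDIT3 libraries held 22.2, 42.6 and 23.0 CPM in wild type at day 10 and 2.15, 2.33 and 2.24 in PERK KO. In wild type against day 0, 11 of the 12 were lower at day 2 (median -1.58; 50.5% of all genes called) and 10 at day 3 (median -1.87; 56.8%). In PERK KO 11 were lower at day 1 (median -0.87; 43.1% of all genes called), where wild type had 4 higher and 5 lower (median -0.20; 44.6%). The direction of PPP1R15A between the genotypes, higher at day 0 and lower at days 1 and 10, was that of most called genes of this list at these days, and at days 2 and 3 it was not.

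Across the 12 group means of log2 CPM, some of the 9 genes rose and fell alike, which is given as a description of 12 points that share libraries and depth. EIF2AK2 and EIF2S1 had a Pearson r of 0.91, EIF2AK2 and PPP1R15A of -0.90, EIF2S1 and PPP1R15A of -0.75, and PPP1R15A and EIF2B5 of 0.71. These means carry no GC offset, and EIF2AK2, EIF2S1, EIF2B5 and PPP1R15A are 39.6%, 39.1%, 51.4% and 57.9% GC. DNAJC3, at 40.3% GC, had an r of 0.15 with EIF2AK2, 0.41 with EIF2S1 and 0.10 with PPP1R15A. The part of GC content in these r values was not tested. EIF2AK1 had no r beyond 0.40 in size with any other. Among 12442 genes with at least 5 CPM on average, those most like EIF2AK2 were EEF1E1 and DDX18 (r = 0.98 for each), and those most like EIF2S1 were CACYBP (0.99) and NRBF2 (0.97). Those most like PPP1R15A were PPP3CC and JPH2 (0.96 each), the second a junction protein of cardiac and skeletal muscle. PHC1 (0.96) and JADE1 (0.95) were most like EIF2AK4, ELK3 (0.94) and MDFIC (0.93) most like PPP1R15B, and NUDCD3 and LRRC42 (0.95 each) most like EIF2B5. For EIF2AK1, whose means spanned only 0.38 on the log2 scale, RPS2P5 came first (0.87). For EIF2AK3 it was FBXL20 (0.88), and for DNAJC3 ITGAE (0.88).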

How the data were processed

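The authors deposited RSEM gene results for each of the 36 libraries and 1 matrix of the same expected counts, per the file headers. The submitters' processing notes name CASAVA, FastQC, STAR, RSEM and the GRCh38 (hg38) build, with no versions in the sources used here. Deposited TPM and transcript lengths, per the file headers, served for comparisons between genes and for a length offset. Here the expected counts were rounded (6.53% to 9.43% of values per library were fractional), genes were kept by filterByExpr (19772 of 58721) and TMM factors were applied. edgeR 4.0.16 (with limma 3.58.1 under R 4.3.3) fitted 1 quasi-likelihood model to all 12 groups, leaving 24 residual degrees of freedom, and p-values were BH adjusted over all genes of a comparison. The SE given is the size of the log2 fold change over the square root of its F statistic. The script was tested on simulated data. The design text speaks of days 0, 2 and 6, and the sample labels, which were used, give days 0, 1, 2, 3, 5 and 10. Gene positions are those of GENCODE 29. The 9 genes and the other lists were chosen with earlier results of these data known. All 9 genes are named, and from the other lists the 4 genes with the smallest p in a comparison. The 2 genes most like each of the 9 were taken by Pearson r over group means. Alternatives were DESeq2 1.42.0, RLE scaling, no filter or a stricter one, the counts of the sample files, length and GC offsets, replicate blocks, fits of 6 libraries and leaving out libraries. Python 3.11.15 with pandas 2.3.3 and numpy 2.4.6 made the tables, and matplotlib 3.10.9 the figures.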

Additional observations from a re-analysis of the deposited data

Results flagged for a closer look

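For 6 of the 9 genes the course over days differed between the genotypes, by a test of the genotype-by-day interaction over all days (edgeR, BH adjusted over all genes, where 80.9% of genes passed). The adjusted p was 3.45e-12 for PPP1R15A, 6.83e-08 for EIF2AK4, 1.91e-07 for EIF2B5, 0.00048 for EIF2AK2, 0.00138 for EIF2S1 and 0.0207 for EIF2AK3. Of these, PPP1R15A and EIF2B5 lay above wild type in PERK KO at day 0 (0.79 and 0.51 on the log2 scale) and below it at day 10 (-2.50 and -1.16). EIF2AK4 differed at days 2, 3 and 5 and not at the first and last days.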

How the results depend on the processing

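Of 2358 recomputed fold changes of the 9 genes, 2200 kept their direction where called and their side of the threshold, 74 lost and 82 gained a call, and 2 changed sign while called with or without the change, both with the GC content offset: EIF2S1 in PERK KO against wild type at day 10 (-0.28) and DNAJC3 in wild type at day 5 against day 0 (0.33). Of the unchanged values, 144 came from the counts of the sample files. Those counts are identical to the matrix, so these 144 could not change. With the GC offset 5 of the 9 genes were called between the genotypes at day 0 and 2 at day 1 (3 and 1 as reported). Of all 19772 genes, 5533 and 4716 were then called (4177 and 3129 as reported). Without both libraries that stood apart 2 were called at day 1, beside 4931 of 20269 genes. With only the 6 compared libraries 1, 5 and 3 were called at days 0, 1 and 3. Beside these, 304 of 16248, 7355 of 16579 and 7679 of 17123 genes were called. With no filter 3 were called at day 3, beside 8820 of 36018 genes. Against day 0 in wild type, 3 were called at day 2 with 6 libraries, beside 7521 of 16658 genes. At day 10 with the GC offset 8 were called, beside 14441 of 19772 genes. In PERK KO against day 0, 4 were called at day 1 with the length offset, beside 7870 of 19772 genes. With the GC offset it was 6, 4 and 7 at days 1, 2 and 10, beside 9991, 9645 and 13152. Without both libraries that stood apart it was 4 and 7 at days 1 and 10, beside 7637 and 11899 of 20269. No filter gave 2 at days 3 and 5, beside 7567 and 9329 of 36018. Fits of 6 libraries gave 2 at day 3, beside 4186 of 16609. The cause of these changes was not tested. Leaving out 1 library at a time gave 2 to 6 calls at day 3 between the genotypes and 2 to 4 for PERK KO at day 1 against day 0. The share of all genes called was not taken for these fits. Deviations of same-numbered libraries correlated at -0.13 to 0.13 outside day 3. At day 3 the correlations were 0.32, -0.01 and 0.28 for replicates 1, 2 and 3. With a replicate block in all groups the calls between genotypes were 3, 1, 4, 5, 6 and 5 in day order, as without it, and the block added 2 calls and ended none. In that fit 4239, 3223, 8649, 9026, 11749 and 13349 of 19772 genes were called between the genotypes in day order. Depth of 130 to 626 counts limits EIF2AK3 and 200 to 791 DNAJC3, the least covered of the 9.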

Other observations

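The summed TPM of the 4 kinases, the denominator of the shares above, was 141 ± 7.32 in wild type at day 0 and 92.4 ± 5.05 at day 5 (SD, n = 3), and in PERK KO 157 ± 56.2 and 147 ± 9.20. The PERK KO libraries lay above all wild-type libraries at days 2, 3 and 5 and below them at day 1. At day 1 each of the 4 kinases had a longer assigned length in every PERK KO library than in any wild-type one. Over all counted reads, the mean transcript length at day 1 was 2937, 2819 and 2930 nt in PERK KO. In wild type it was 2775, 2811 and 2826 nt. The share of all genes with longer assigned lengths in PERK KO was not taken. The CPM of the 4 kinases overlapped between the genotypes at day 1, except for EIF2AK3, which was higher in PERK KO. The part of these lengths in the sum was not tested. Set against EIF2S1, the kinases' summed TPM was 2.56 ± 0.489, 0.884 ± 0.114 and 2.58 ± 0.326 times that of their substrate in wild type on days 0, 1 and 10. For PERK KO the ratio was 1.48 ± 0.364, 1.02 ± 0.126 and 1.68 ± 0.0987, below all wild-type libraries at days 0 and 10. The transcript length that RSEM assigned to EIF2S1 also moved, from 1435, 1624 and 1820 nt in wild type at day 0 to 1207, 1218 and 1118 nt in PERK KO at that day, and its part in the ratio was not tested.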
